A study of Mus musculus with 4 samples.

Results

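The genes described here build and handle the cell's sterols and fatty acids. They were taken from a list of 35 genes of the 22063 in the deposited table, by a rule that names them for their place in the pathway and uses no measured value. The choice was nonetheless made with earlier results of these data known. The list holds 6 genes of the mevalonate steps, 11 of the steps from squalene to cholesterol and 5 of fatty acid synthesis. It also holds 5 for the SREBP transcription factors and their partners and 3 of sterol transport. A further 4 are switched on by the liver X receptors (LXRs) and are called the efflux genes below, though *Mylip* among them acts on uptake. The last is the LXR gene *Nr1h2*. The first 3 sets, 22 genes, are called the synthesis genes below. A filter on low counts left 34 of the 35 for testing, all but *Abca1*, and 11727 genes in all.

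RNA-sequencing was done on TKPTS cells (TKPT in the labels), a mouse kidney line labelled as proximal tubule epithelium and of WT genotype. All 4 libraries came from cells kept in 1% O2 for 24 h and then returned to normal oxygen for 12 h, so no normoxic cells enter the comparison. The si-NC group, labelled Scrambled, holds replicates 2 and 3, and the si-*Itgb6* group, labelled Itgb6-siRNA, holds replicates 1 and 3. *Itgb6* encodes the β6 chain of integrin αvβ6, and its siRNA was carried in by a transfection reagent at a cell density of 60%. The labels do not say that replicates were separate cultures, so p-values measure the spread between these libraries only. All 4 came from 1 line, and in bulk RNA fewer cells of a type and less RNA per cell cannot be told apart.

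Cells make cholesterol from acetyl-CoA through mevalonate and squalene, and fatty acids from the same acetyl-CoA through malonyl-CoA. When membrane sterol is low, SCAP carries the SREBPs from the endoplasmic reticulum to the Golgi, where proteases free the part that turns on synthesis genes, while INSIG proteins hold the complex back when sterol is plentiful. LXRs, activated by oxysterols, turn on genes that export sterol or lower its uptake, and proximal tubule cells are known to accumulate lipid after injury. The question put to the data was whether the SREBP side and the LXR side differed between si-*Itgb6* and si-NC cells.

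The mRNAs of both SREBP factors, *Srebf2* and *Srebf1*, fell by 19.5% and 18.6% in the si-*Itgb6* libraries, and that of the fatty acid synthase *Fasn* fell by 15.4%. With the trends of GC content and transcript length taken out of each library the calls of *Srebf1* and *Fasn* ended, and *Srebf2* kept its call at a smaller size. None of the 17 enzymes of cholesterol synthesis passed the adjusted test. Slightly above the si-NC level lay 14 of them (82.4%), where 50% of all genes tested lay above it. Of the efflux genes, *Apoe*, which encodes a lipid-carrying apolipoprotein, rose 2.43-fold from a very low level by edgeR, a call that DESeq2 did not make. The targeted gene was not called: *Itgb6* counts were 285 and 284 in the si-NC libraries (replicates 2 and 3) against 279 and 260 in the si-*Itgb6* libraries (replicates 1 and 3). The change was -0.0051 ± 0.13 (SE) on the log2 scale, a fold of 0.996 (95% interval 0.829 to 1.2), with an adjusted p of 0.991 (edgeR, Benjamini-Hochberg). The libraries are therefore named by their labels throughout, and each direction below is that of the libraries labelled si-*Itgb6*.

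Promoter sequence is shown for the 4 genes that passed the test and for *Hmgcs1*, an early enzyme of the mevalonate steps, which did not. The runs are RefSeq's (GRCm38.p6), read 5′ to 3′ on the gene's strand, from 250 bases before the start of transcription and cut where an exon of the gene begins in GENCODE vM21. Capitals mark TCACNCCA, a form of the sterol regulatory element, and CCAAT, the box that NF-Y binds, on either strand. For *Srebf1* and *Apoe* RefSeq gives 3 starts each, and the start with the most matches is shown.
Srebf2 (chr15:82147019-82147180, + strand): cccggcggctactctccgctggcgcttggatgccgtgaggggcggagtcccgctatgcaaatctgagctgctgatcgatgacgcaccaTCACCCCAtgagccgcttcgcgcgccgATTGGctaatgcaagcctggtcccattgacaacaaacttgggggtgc
Srebf1 (chr11:60210472-60210721, - strand): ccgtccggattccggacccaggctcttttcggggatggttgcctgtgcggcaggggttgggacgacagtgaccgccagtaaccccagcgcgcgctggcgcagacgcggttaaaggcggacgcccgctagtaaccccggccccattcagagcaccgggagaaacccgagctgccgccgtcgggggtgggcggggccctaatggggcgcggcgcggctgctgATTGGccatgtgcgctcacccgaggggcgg
Fasn (chr11:120824548-120824797, - strand): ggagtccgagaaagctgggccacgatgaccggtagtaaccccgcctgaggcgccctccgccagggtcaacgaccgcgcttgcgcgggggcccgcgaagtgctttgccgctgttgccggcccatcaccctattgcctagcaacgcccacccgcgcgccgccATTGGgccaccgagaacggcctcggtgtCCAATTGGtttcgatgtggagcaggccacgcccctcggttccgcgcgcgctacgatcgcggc
Apoe (chr7:19699189-19699438, - strand): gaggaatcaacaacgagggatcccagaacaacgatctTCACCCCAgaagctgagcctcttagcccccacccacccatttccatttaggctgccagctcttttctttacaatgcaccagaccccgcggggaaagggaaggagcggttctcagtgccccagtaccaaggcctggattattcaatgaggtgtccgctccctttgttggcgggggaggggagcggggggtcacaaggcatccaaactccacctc
Hmgcs1 (chr13:119690101-119690350, + strand): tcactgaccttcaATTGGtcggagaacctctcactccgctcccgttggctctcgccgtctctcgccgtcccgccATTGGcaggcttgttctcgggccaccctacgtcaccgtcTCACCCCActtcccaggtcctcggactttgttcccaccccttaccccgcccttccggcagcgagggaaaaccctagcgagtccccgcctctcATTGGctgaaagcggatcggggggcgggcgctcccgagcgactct

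The *Srebf2*, *Apoe* and *Hmgcs1* windows each held 1 TCACNCCA. RefSeq's table had a promoter for 27 of the 35 genes, and in the 250 bases before the start TCACNCCA was found before at least 1 start of 4 of them, the fourth being *Msmo1*. Counted by gene in the same way it was found in 4.2% of all 27025 genes of the table, and counted by promoter in 3.67% of all 32851. CCAAT was found in 21 of the 27, in 37.5% of all genes and in 33.8% of all promoters. GGGCGG, the GC box of Sp1, was found in 22 of the 27, in 35.4% of all genes and in 32.7% of all promoters. *Fasn* had 3 CCAAT matches, and those in its stretch CCAATTGG overlap because both strands read CCAAT there. These letters were chosen after the promoters had been read, a match is only a match, and 8 genes had no entry (*Fdps*, *Sqle*, *Fdft1*, *Abcg1*, *Npc1*, *Scd1*, *Stard4* and *Scd2*).

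Total counts ran from 15435074 to 17220281 per library. The median log2 fold change of all genes tested was 0.00018, with quartiles of -0.13 and 0.12. Of the 8 proximal tubule markers, *Slc34a1*, *Slc5a2*, *Slc22a6* and *Slc22a8* were at 0 in all 4 libraries, and *Hnf4a* and *Lrp2* did not reach the filter. *Aqp1*, a water channel of the proximal tubule, was the marker of that list that rose (log2 fold change 0.59, adjusted p 0.000618 by edgeR). All 8 renal epithelial markers, among them *Pax8* and *Cdh16*, passed the filter. In si-*Itgb6* *Krt8* was lower (-0.20, adjusted p 0.00882 by edgeR) and *Havcr1* higher (0.19, 0.0358). Neither was called by edgeR with GC and length trends removed (-0.11, adjusted p 0.199, and 0.12, 0.238). DESeq2 did not call *Havcr1* (adjusted p 0.0559). The markers of a renal epithelium were thus present, while the transporters that define a mature proximal tubule were at 0. Of 5 endothelial markers only *Cdh5* passed the filter, and it was not called.

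Levels between genes can be set side by side only per length, as the authors' FPKM (fragments scaled to transcript length and to depth). *Fdps*, which joins isoprene units into farnesyl diphosphate, had the highest mean over the 4 libraries, 542 FPKM, next to the desaturase gene *Scd2* at 538. Their library values overlapped, from 534 to 552 for *Fdps* and from 526 to 556 for *Scd2*, so no order holds between them. *Scd1* followed at 176 and *Hmgcs1* at 156 FPKM. The lowest of the 22 synthesis genes was *Hsd17b7*, a sterol ketone reductase, at 4.84 FPKM. *Srebf2* stood at 79.4 and *Srebf1* at 40.5 FPKM. The LXR targets were far below, with *Apoe* at 2.24, *Abcg1* at 0.478, *Mylip* at 0.243 and *Abca1* at 0.0015 FPKM. Every synthesis gene lay above every efflux gene, with *Hsd17b7* (4.41 to 5.23 FPKM) closest to *Apoe* (1.15 to 3.63 FPKM).

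**Figure D1:**
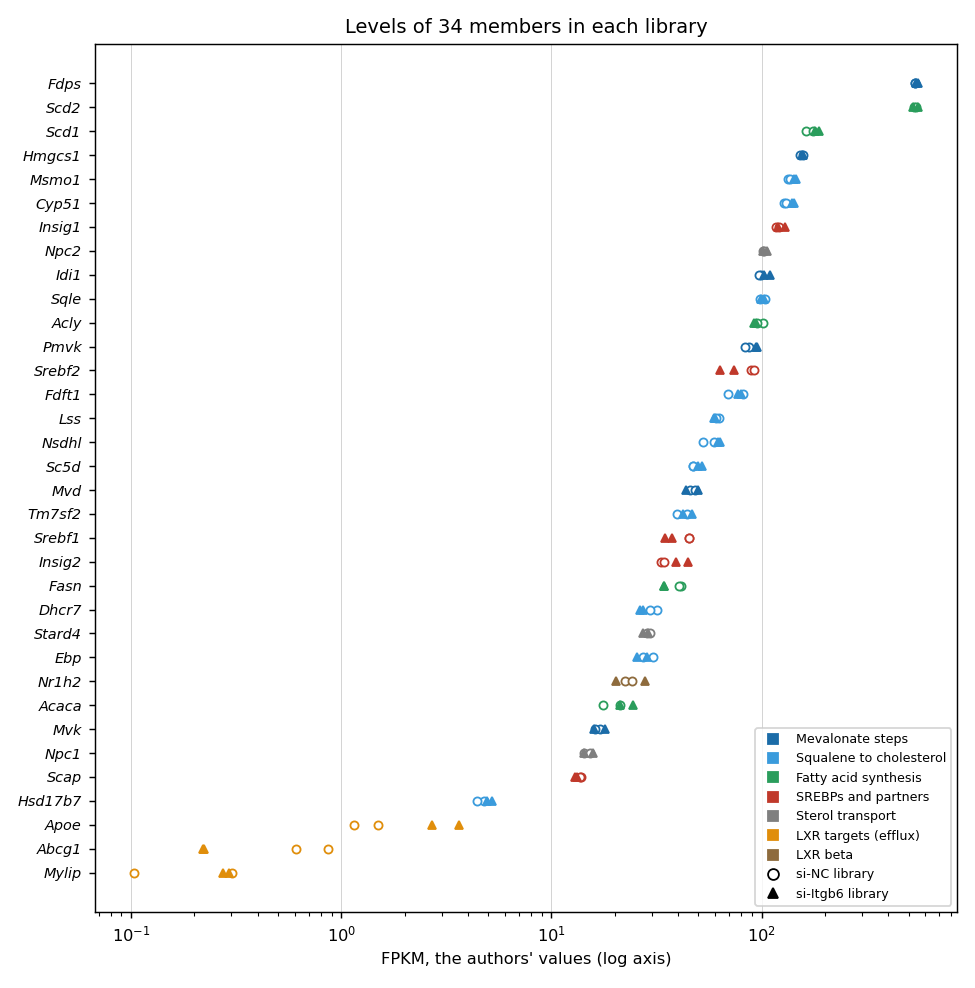
Levels of 34 of the 35 genes in each library, as the authors' FPKM on a log axis, ordered by their mean, with open circles for si-NC and filled triangles for si-Itgb6. Abca1 is left out because it is listed at 0 in 3 libraries. The synthesis genes span 4.84 to 542 FPKM in mean, while Apoe, Abcg1 and Mylip lie below 4 FPKM in every library.

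Changes were tested on counts with edgeR's quasi-likelihood test, and a gene was called at an adjusted p under 0.05 over all genes tested. By that rule 3 of the 34 genes (8.82%) were lower in si-*Itgb6*, against 2.52% of all genes tested, and 1 (2.94%) was higher, against 2.11%. At an unadjusted p under 0.05, 3 (8.82%) were lower against 9.62% of all genes, and 8 (23.5%) were higher against 8.8%. With the thresholds of the study's methods, a fold change over 1.2 at an unadjusted p under 0.05, 2 (5.88%) were lower against 5.2% and 1 (2.94%) was higher against 4.37%. The groups did not overlap in CPM (counts scaled to library depth by edgeR's TMM) for 5 genes (14.7%) on the lower side, against 25.4% of all genes, and for 13 (38.2%) on the higher side, against 23.8%. No share of the list was tested against the rest.

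**Figure D2:**
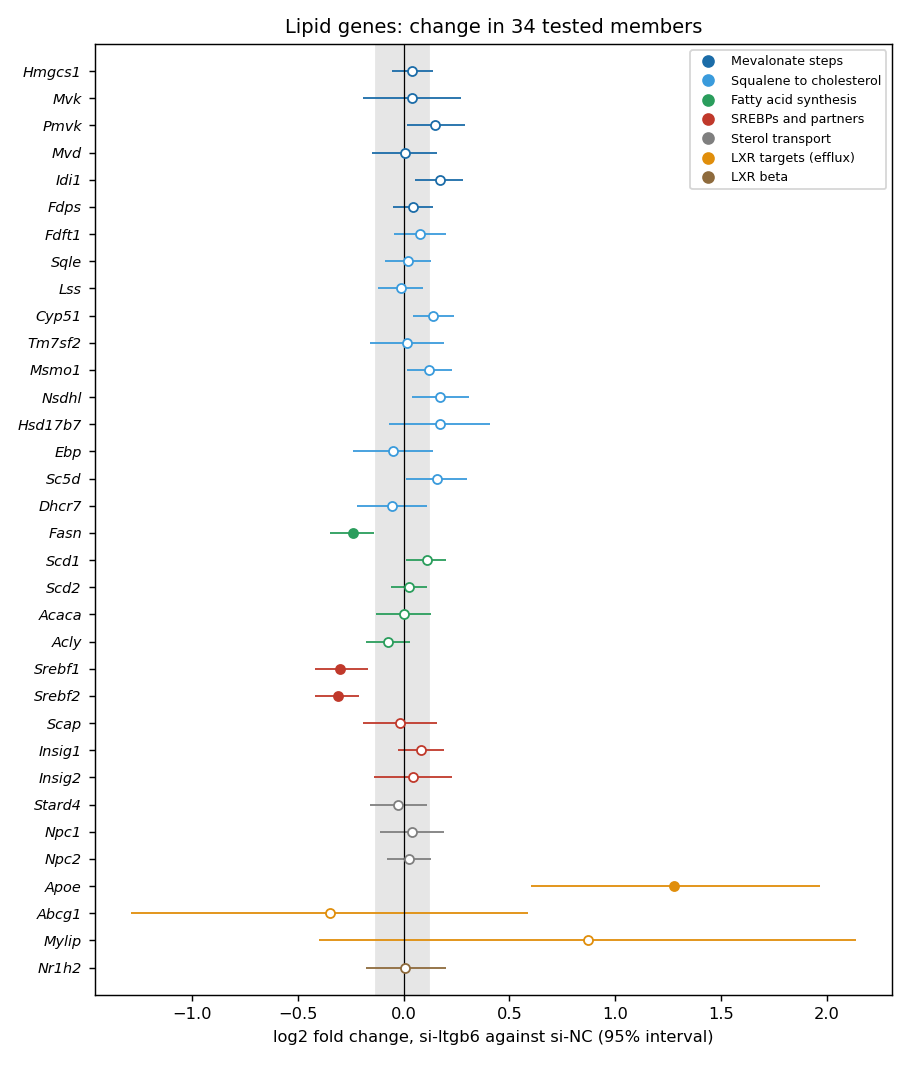
Log2 fold change, si-Itgb6 against si-NC, of the 34 genes tested, with 95% intervals, in the order of the pathway and coloured by role. Filled points have an adjusted p under 0.05, and the grey band spans the quartiles of all 11727 genes tested (-0.13 to 0.12). Srebf1, Srebf2 and Fasn lie below the band, as does Abcg1 (-0.35, not called), the lowest point. Apoe lies far above it, as does Mylip (0.87, not called). The cholesterol enzymes run from -0.053 to 0.17, with Pmvk, Idi1, Cyp51, Nsdhl, Hsd17b7 and Sc5d above the band but not called.

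The SREBP factors and their partners came first, since they set the rate of the pathway. *Srebf2* encodes the factor that chiefly drives cholesterol synthesis genes (ENSMUSG00000022463, GENCODE vM21, GRCm38, chr15:82147181-82205379, + strand). It had 7064 and 7027 counts in the si-NC libraries and 5408 and 5378 in the si-*Itgb6* libraries, or 433 and 407 CPM against 349 and 327 CPM. Both si-*Itgb6* values lay below both si-NC values. Its log2 fold change was -0.31 ± 0.053 (SE), a fold of 0.805 (95% interval 0.747 to 0.867), with an adjusted p of 0.000361 by edgeR. With GC and length trends removed it was -0.19 and still called (adjusted p 0.0391 by edgeR), and without si-NC replicate 2 it was -0.27 and not called (0.174). *Srebf1* encodes the factor tied more to fatty acid synthesis (ENSMUSG00000020538, chr11:60199089-60222581, - strand). It had 2949 and 3119 counts in si-NC and 2348 and 2345 in si-*Itgb6*, or 181 in each si-NC library against 152 and 142 CPM. Here too the groups did not overlap. The log2 fold change was -0.30 ± 0.060, a fold of 0.814 (0.747 to 0.886), with an adjusted p of 0.00228 by edgeR. The call ended with GC and length trends removed (-0.16, adjusted p 0.144 by edgeR) and without si-NC replicate 2 (-0.30, 0.185) or replicate 3 (-0.30, 0.0783). Exons of *Srebf1* overlap those of *Rai1* on the other strand, and the libraries keep no strand, so reads of the overlap cannot be told apart.

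*Scap*, whose product escorts the SREBPs, had a log2 fold change of -0.017 (95% interval -0.19 to 0.16). *Insig1*, which retains the complex and is itself an SREBP target, had 5109 and 5629 counts in si-NC and 5387 and 5399 in si-*Itgb6*. Scaled to depth these were 313 and 326 CPM against 348 and 328, a narrow gap in which si-*Itgb6* was the higher group. Its log2 fold change of 0.08 ± 0.053 did not pass the test (edgeR adjusted p 0.444). *Insig2*, the second retention gene, was at 48.1 and 50.8 CPM in si-NC and 46.5 and 55.6 CPM in si-*Itgb6*, so the groups overlapped. In the authors' FPKM the same gene stood at 33.2 and 34.2 against 39.1 and 44.5, where they did not overlap, so the unit decides how that gene reads. None of the 3 partners passed the test.

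**Figure D3:**
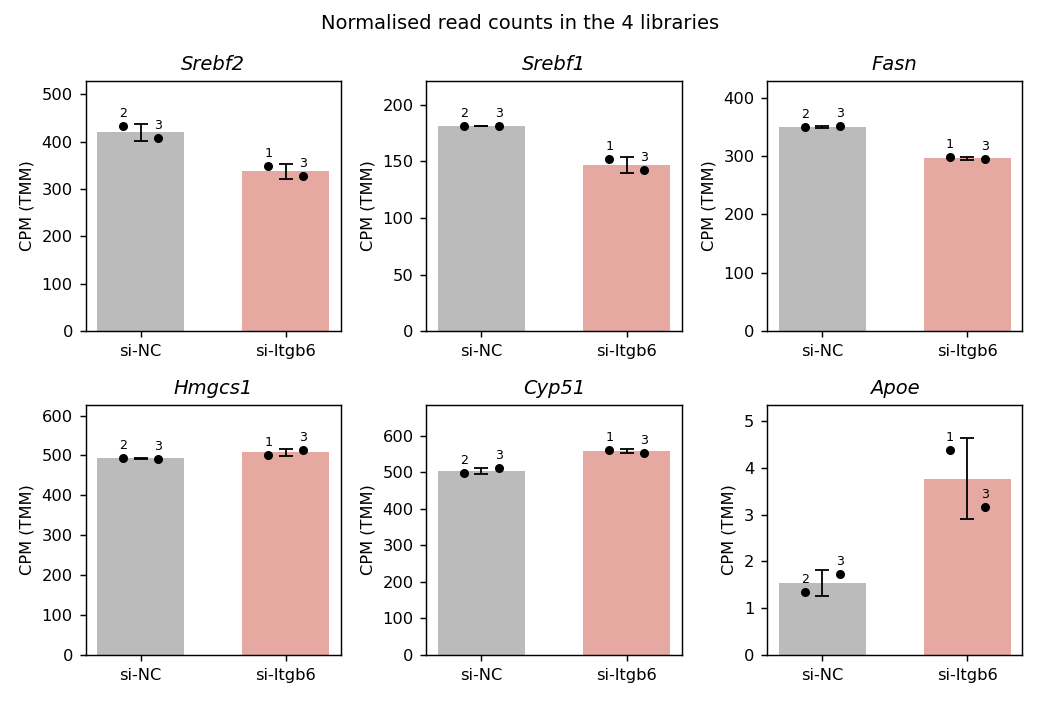
Normalised read counts (CPM, TMM) of Srebf2, Srebf1, Fasn, Hmgcs1, Cyp51 and Apoe in the 4 libraries, numbered by replicate, with bars at the group mean and error bars of 1 SD (n = 2 per group), each axis from 0. The si-Itgb6 libraries are lower for the first 3 genes, close to si-NC for Hmgcs1 (494 and 492 against 501 and 514 CPM), above si-NC without passing the adjusted test for Cyp51 (499 and 511 against 562 and 554 CPM), and higher for Apoe, whose values stay below 5 CPM.

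None of the 6 genes of the mevalonate steps passed the adjusted test. All 6 fold changes lay above 0 on the log2 scale, with a median of 0.043, where 50% of all genes tested lay above 0. *Hmgcs1*, which makes HMG-CoA, had 8067 and 8499 counts in si-NC and 7764 and 8472 in si-*Itgb6*. The log2 change of 0.042 had a 95% interval of -0.056 to 0.14, and the adjusted p was 0.7 by edgeR. At the end of these steps, *Fdps* had 10734 and 11496 counts in si-NC and 10550 and 11234 in si-*Itgb6*, which gave 0.043 on the log2 scale (-0.052 to 0.14). For both of these enzymes a change as large as that of *Srebf2*, down or up, lay outside the interval. *Idi1*, the isomerase of isopentenyl diphosphate, came nearest to the threshold of all 17 cholesterol enzymes, with a log2 fold change of 0.17 ± 0.055 and an adjusted p of 0.0786 by edgeR. *Pmvk*, the phosphomevalonate kinase, was at 0.15 ± 0.067 (adjusted p 0.197), and *Mvk* and *Mvd* were at 0.038 and 0.0075.

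The median log2 fold change of the 11 genes from squalene onward was 0.079, and none passed the adjusted test. Above 0 lay 8 of them (72.7%), against 50% of all genes tested. *Fdft1*, the squalene synthase gene, had 3369 and 4160 counts in si-NC and 3685 and 3866 in si-*Itgb6*, so the control libraries bracketed the others. Its deposited counts were not whole numbers in any library, and its exons overlap *Ctsb* on the other strand, so they are uncertain. *Sqle*, squalene epoxidase, had 4630 and 4675 counts against 4400 and 4573, which after scaling gave a log2 fold change of 0.019 (-0.09 to 0.13). *Dhcr7*, the last reductase of the route, had 946 and 998 counts against 897 and 884 and a log2 fold change of -0.053 (-0.22 to 0.11). These enzymes at the start and the end of the branch thus lay within their error of no change.

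Higher values, short of the threshold, were found at some of the other steps of the branch. *Cyp51*, the lanosterol demethylase, was at 499 and 511 CPM in si-NC and at 562 and 554 CPM in si-*Itgb6*, which gave 0.14 ± 0.048 on the log2 scale (adjusted p 0.0804 by edgeR). *Nsdhl* and *Msmo1*, which with it strip methyl groups from the sterol ring, were at 0.17 and 0.12, and *Sc5d*, a desaturase, at 0.16. Each of these 4 had an unadjusted p under 0.05 by edgeR and groups that did not overlap, and none passed after adjustment. Of the 11 genes, 36.4% were higher at that p and 45.5% higher without overlap, against 8.8% and 23.8% of all genes tested. These shares were not compared by a test, and the 4 were set together after their values were seen. *Cyp51* shares exon sequence with *Akap9* on the other strand. *Hsd17b7* was at 0.17, *Tm7sf2* at 0.016, *Lss* at -0.013 and *Ebp* at -0.048. Over all 17 cholesterol enzymes the log2 fold changes ran from -0.053 to 0.17.

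Among the 5 fatty acid genes only *Fasn* passed the test (20% lower, against 2.52% of all genes tested). *Fasn*, whose product builds palmitate (ENSMUSG00000025153, chr11:120805846-120824547, - strand), had 5694 and 6061 counts in si-NC and 4616 and 4841 in si-*Itgb6*, or 349 and 351 CPM against 298 and 294 CPM. The replicates lay within a few CPM of each other and the groups did not overlap. The log2 fold change was -0.24 ± 0.051, a fold of 0.846 (0.787 to 0.91), with an adjusted p of 0.00385 by edgeR, short of the study's fold threshold. The call ended with GC and length trends removed (-0.14, adjusted p 0.153 by edgeR) and without si-NC replicate 2 (-0.25, 0.227) or replicate 3 (-0.23, 0.102). *Acaca*, which makes malonyl-CoA for *Fasn*'s product, had 2132 and 2214 counts against 1932 and 2210, a log2 fold change of 0.0011 (-0.13 to 0.13). *Acly*, which supplies acetyl-CoA from citrate, was at -0.074 (-0.18 to 0.03).

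The stearoyl-CoA desaturases put the double bond into the product. *Scd1* had 12300 and 13923 counts in si-NC and 13037 and 13778 in si-*Itgb6*, which gave 0.11 ± 0.047 on the log2 scale (adjusted p 0.218 by edgeR). *Scd2* had 46768 and 50936 counts against 46744 and 47862, a log2 fold change of 0.027 (-0.058 to 0.11). These neighbouring genes are close copies, and their counts were not whole in 2 libraries each, so how reads were split between them is uncertain. Neither desaturase passed the test, so no direction of theirs can be set beside that of *Fasn*. The differences between genes were not tested.

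The efflux side rested on few reads. *Apoe* (ENSMUSG00000002985, chr7:19696109-19699188, - strand) had 22 and 30 counts in si-NC and 68 and 52 in si-*Itgb6*, or 1.35 and 1.74 CPM against 4.39 and 3.16 CPM. Both si-*Itgb6* values lay above both si-NC values. The log2 fold change was 1.28 ± 0.34, a fold of 2.43 (1.51 to 3.91), with an adjusted p of 0.0221 by edgeR. DESeq2 gave 1.29 with an adjusted p of 0.137. Without si-*Itgb6* replicate 1 the log2 fold change was 1.03 with an adjusted p of 0.174 by edgeR, and it was not called without si-NC replicate 2 (1.11, 0.376) or si-NC replicate 3 (1.48, 0.0993) either.

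Some, not all, of the fibroblast and macrophage markers were highest in si-*Itgb6* replicate 1. *Apoe* itself was highest there too, but it lay above si-NC in both si-*Itgb6* libraries. In si-*Itgb6* replicate 1 *Col1a1* had 22 counts, *Col3a1* 14 and *Col1a2* 11, where the other libraries had at most 2 each. All 7 fibroblast markers together summed to 52 and 61 counts in si-NC and 90 and 54 in si-*Itgb6*, with *Pdgfrb* supplying 52, 55, 35 and 47 of them, and only *Pdgfrb* passed the filter. Of the 8 macrophage markers, the defining *Adgre1* had 0, 0, 0 and 1 counts and *Lyz2* had 0, 0, 11 and 0. *Ptprc* had 3, 1, 0 and 6, and *Cd14* had 137, 175, 145 and 190, both highest in si-*Itgb6* replicate 3. *Itgam* had 0, 0, 2 and 1, and *Fcgr1* had 2, 2, 5 and 3. *Cd68* and *Csf1r* kept the list's sum at 2295 and 2614 against 2115 and 2183. The part of these markers in the *Apoe* result was not tested.

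*Abcg1*, an exporter of cholesterol to high-density lipoprotein, had 35 and 17 counts in si-NC and 20 and 19 in si-*Itgb6*. This gave -0.35 ± 0.46 on the log2 scale (adjusted p 0.747 by edgeR), its interval of -1.29 to 0.59 covering changes either way. In the authors' FPKM it stood at 0.865 and 0.607 in si-NC and 0.222 and 0.22 in si-*Itgb6*, groups that did not overlap, while the counts did. *Mylip*, an LXR-induced ligase that marks lipoprotein receptors for breakdown, had 5 and 11 counts against 13 and 15, which gave 0.87 ± 0.62 on the log2 scale (adjusted p 0.488 by edgeR). *Abca1*, the exporter to apolipoprotein A-I, had 0 and 0 counts in si-NC and 1 and 0 in si-*Itgb6*. A count of 0 allows up to 3 counts, 0.174 to 0.194 CPM in these libraries, which covers counting error only, and no fold is given. *Nr1h2*, the gene of LXRβ itself, was at 0.0082 (-0.18 to 0.2). The interval of *Abcg1* covered a fall of 1 log2 unit, and that of *Mylip* (-0.4 to 2.14) a rise of 1. Changes of that size in those directions were thus not excluded at this depth.

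On the log2 scale the median of the 22 synthesis genes was 0.04, with 17 above 0 (77.3%, against 50% of all genes tested) and 5 below. Beside it, the 3 efflux genes tested had a median of 0.87. That median is the value of *Mylip* alone, a gene of uptake rather than export, which was not called (adjusted p 0.488 by edgeR). It lay between the exporter gene *Abcg1* at -0.35 and *Apoe* at 1.28. The 7 other LXR genes tested, taken up below, had a median of -0.021. That list is mixed: *Arl4c* (0.35), *Pltp* (0.052) and *Lpcat3* (0.0091) lay above 0. The receptor genes *Rxra* (-0.47) and *Rxrb* (-0.075) and the transporter genes *Abca2* (-0.22) and *Abca7* (-0.021) lay below. A rise of the LXR side as a whole was not shown, and the median of so mixed a list cannot decide it. Each pair of 1 si-*Itgb6* and 1 si-NC library gave a synthesis median between 0.036 and 0.09, with 12 to 16 of the 22 above 0, beside 48.6% to 49.9% of all genes tested. For the efflux genes the pairs gave medians of 0.27 to 0.81. A change of the si-NC library alone, from replicate 2 to replicate 3, moved the efflux median from 0.73 to 0.27 for si-*Itgb6* replicate 1 and from 0.81 to 0.31 for replicate 3. The difference, synthesis minus efflux, was -0.83. It was -0.43 when at least 10 counts were asked of every library, which drops *Mylip*, -0.41 without si-NC replicate 2 and -1.42 without si-NC replicate 3. Its sign was kept in all these, but its size rests on 3 genes with at most 68 counts in any library. The genes of a list are not replicates, so no p goes with these medians.

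The 3 genes that fell are rich in G and C. The GC content of the longest transcript was 57.9% for *Srebf2*, 58.4% for *Srebf1* and 57.9% for *Fasn*, against a median of 49.8% over all genes tested and 48.7% over the 17 cholesterol enzymes. Over 11709 genes the log2 fold change ran with GC content at a Spearman rho of -0.364, given as a description across genes of the same 4 libraries. With these trends removed only *Srebf2* of the 3 kept its call, as given above. *Apoe*, at 59.5% GC, was then at 1.38 (adjusted p 0.0287 by edgeR). The step moves genes of high GC content up by its construction, other listed genes among them. *Pmvk* (57.0%) went from 0.15 to 0.22, *Mvd* (59.0%) from 0.0075 to 0.12 and *Scap* (59.1%) from -0.017 to 0.13. The part of GC content in the changes of single genes was not tested. The fit without si-NC replicate 2 called 13 genes of all tested, against 542 with it.

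**Figure D4:**
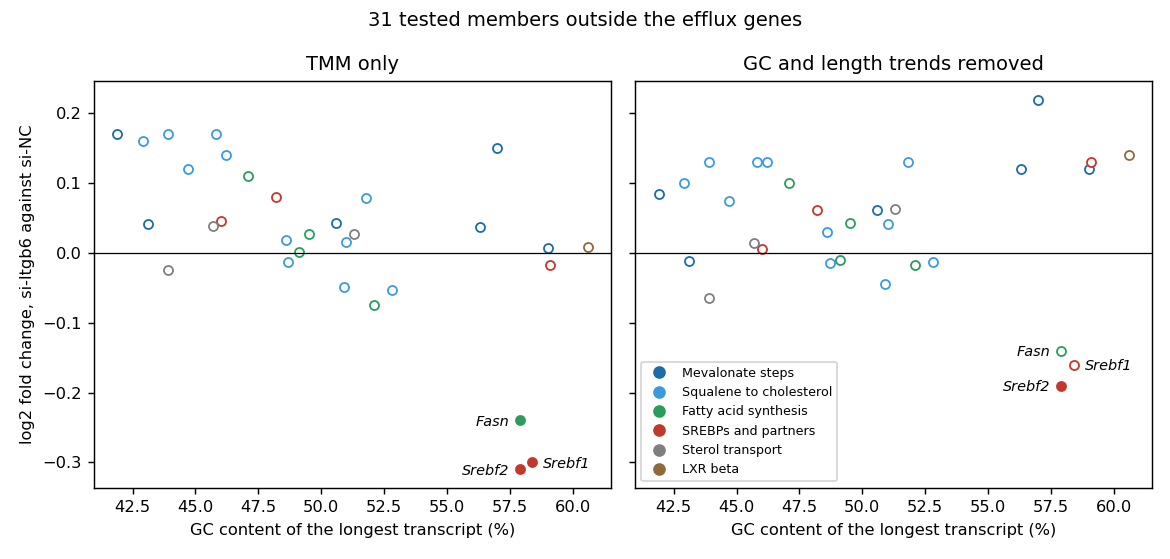
Log2 fold change against GC content of the longest transcript for the 31 genes tested outside the efflux set, with TMM scaling only on the left and with GC and length trends removed on the right. Filled points have an adjusted p under 0.05. Srebf2, Srebf1 and Fasn are the lowest points in both panels, at -0.31, -0.30 and -0.24 on the left and -0.19, -0.16 and -0.14 on the right, where only Srebf2 is filled.

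None of the 3 genes of sterol transport inside the cell passed the test. *Npc1* and *Npc2*, which pass cholesterol out of lysosomes, were at 0.039 (-0.11 to 0.19) and 0.027 (-0.079 to 0.13). *Stard4*, a carrier of sterol between membranes, was at -0.025 (-0.16 to 0.11). *Npc1* counts were not whole in any library, and its exons overlap *Rmc1* on the other strand.

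A further 62 genes of the same pathways were read from the same fit, of which 59 were tested, 5 (8.47%) were lower and 3 (5.08%) higher at an adjusted p under 0.05, against 2.52% and 2.11% of all genes tested. Of the 9 other genes of SREBP control 3 (33.3%) were lower and 0 higher, against the same shares, which were not tested against the list's. *Mbtps1*, the Golgi protease that makes the first cut in the SREBPs, was at 45.9 and 46.5 CPM in si-NC and 34.7 and 35 CPM in si-*Itgb6*, which gave -0.40 ± 0.090 on the log2 scale (adjusted p 0.00587 by edgeR). *Erlin2*, of a complex that keeps SREBPs inactive in the endoplasmic reticulum, was at 99.6 and 91.0 CPM against 72.9 and 69.0, a log2 fold change of -0.43 ± 0.074 (0.000568). *Rnf145*, a sterol-responsive ubiquitin ligase, was at -0.21 ± 0.060 (0.0433). These 3 kept their calls once GC and length trends were taken out.

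Of 28 other genes of lipid synthesis, 1 (3.57%) was lower and 3 (10.7%) were higher, beside 2.52% and 2.11% of all genes tested. *Elovl6*, which lengthens palmitate, had 481 and 580 counts in si-NC and 617 and 675 in si-*Itgb6*, which gave 0.36 ± 0.10 on the log2 scale (adjusted p 0.0294 by edgeR). *Acsl3* and *Acsl4*, which charge fatty acids with CoA, were at 0.28 (0.0122) and 0.23 (0.0109). *Gpam*, which starts glycerolipid assembly, had 226 and 232 counts against 129 and 173, a log2 fold change of -0.53 ± 0.16 (0.04997). Once GC and length trends were taken out none of the 4 was called, with *Gpam* still at -0.53 (0.0887), *Elovl6* at 0.31 (0.0941), *Acsl3* at 0.23 (0.066) and *Acsl4* at 0.13 (0.223). None of 15 other sterol transport genes was called. Of 10 other LXR genes 7 were tested, with a median log2 fold change of -0.021, 3 above 0 and 4 below. Only *Rxra* of these, the partner receptor of the LXRs, was called, lower at -0.47 ± 0.14 (0.0437). It was not called with the trends taken out (-0.34, 0.24), with RLE scaling (0.0574) or by library size alone (0.0552). RLE scaling also ended the edgeR calls of *Gpam* (adjusted p 0.0591) and *Rnf145* (0.0531). Library size alone ended those of *Gpam* (0.0553) and *Elovl6* (0.0506). Leaving out libraries ended each of these 8 calls at least once, and DESeq2 did not call *Elovl6*, *Gpam*, *Rnf145* or *Rxra*.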

How the data were processed

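Total RNA of the 4 libraries was enriched for polyadenylated RNA and sequenced in pairs of reads without strand information on an Illumina sequencer. The authors deposited estimated counts and FPKM per gene; the aligner, counting tool and genome build are not given in the sources used here. Estimated counts were rounded to whole numbers (1447 to 1500 genes per library were not whole). Genes were kept with filterByExpr (minimum count 10, minimum total count 15), scaled with TMM and tested with edgeR 4.0.16 (R 4.3.3, glmQLFit and glmQLFTest), with Benjamini-Hochberg adjustment over 11727 genes, and the fit was tested on simulated data. The alternatives were RLE and library-size scaling, no filter or a stricter one, the likelihood ratio test, DESeq2 1.42.0, lowess offsets for GC content and length (GENCODE vM21), and leaving out each library. The deposited FPKM served for levels only. Deposited values of the authors' own comparisons were not used.

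The genes and lists were chosen with earlier results of these data known. Values in every library are given for genes past either threshold, the efflux genes, *Srebf1*, *Srebf2*, *Insig1* and the first and last enzymes of each branch; of the further 62 genes, those with an adjusted p under 0.05 are named. *Cyp51*, *Insig2* and the other genes named beside them were added after their values were seen. Promoters were RefSeq's; *Msmo1*'s is not shown because under 100 of its bases precede an annotated exon. The comparison of *Scd1* and *Scd2* proteins was not run. With 2 libraries a group, exact permutation tests of single values were not used.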

Additional observations from a re-analysis of the deposited data

How the results depend on the processing

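No paired analysis was possible because the groups share only replicate number 3. With GC content and length trends removed, genes called lower went from 3 to 1, those past the study's thresholds on the lower side from 2 to 0, and the synthesis median from 0.04 to 0.067. DESeq2 called 0 genes higher in place of 1, and a fold change over 1.5 left 0 lower. The efflux median was 1.08 with no filter and 0.47 with the stricter filter, and the difference, synthesis minus efflux, was -1.04 and -0.43 there and -0.55 as means. Signs turned, without a call, for *Hmgcs1* (-0.012), *Acaca* (-0.01) and *Scap* (0.13) with the trends removed and for *Mvd* (-0.0066), *Acaca* (-0.014) and *Nr1h2* (-0.0057) with library-size scaling.

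Leaving out each library in turn gave 0 to 3 genes called lower and 0 to 2 higher, 0 to 2 and 1 to 2 past the study's thresholds, and 7 to 11 lower and 15 to 21 higher without overlap, where fewer libraries make separation easier. *Cyp51* was called without si-*Itgb6* replicate 3 and *Idi1* without si-*Itgb6* replicate 1. The synthesis median ran from 0.04 to 0.088, the efflux median from 0.45 to 1.48, their difference from -1.42 to -0.41 and *Itgb6* from -0.1 to 0.091. A lone library was then taken to vary like those of the other group. The 4 called genes kept their sign in every fit. Of the genes not called, 16 turned sign at least once when a library was left out, with log2 ranges of -0.034 to 0.11 (*Mvk*), -0.077 to 0.09 (*Mvd*), -0.028 to 0.2 (*Fdft1*), -0.012 to 0.053 (*Sqle*), -0.056 to 0.089 (*Tm7sf2*), -0.16 to 0.076 (*Ebp*), -0.11 to 0.0039 (*Dhcr7*), -0.0014 to 0.057 (*Scd2*), -0.05 to 0.052 (*Acaca*), -0.1 to 0.063 (*Scap*), -0.087 to 0.17 (*Insig2*), -0.048 to 0.0002 (*Stard4*), -0.022 to 0.1 (*Npc1*), -0.014 to 0.068 (*Npc2*), -0.81 to 0.31 (*Abcg1*) and -0.11 to 0.12 (*Nr1h2*).

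Over all genes tested, 542 were called, against 245 by DESeq2, 217 with the trends removed and 13 to 777 with a library left out. All these counts rest on 2 libraries a group, and the efflux genes on at most 68 counts in any library. RLE scaling and the likelihood ratio test changed none of the counts of genes called among the 35 listed. Among the further 62 genes RLE scaling ended the calls of *Gpam*, *Rnf145* and *Rxra*.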
